A study of Mus musculus with 136 samples.

Results

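The visceral yolk sac was compared with the embryo of the same conceptus in diabetic pregnancies at the 7-9 somite stage. Libraries were taken when the embryo label gave 7, 8 or 9 somite pairs and the dam was diabetic, and each embryo was joined to its own yolk sac through the shared start of their names. Repeat libraries of the same RNA were left out. This gave 16 pairs, or 32 of the 136 libraries and 16 of the 66 concepti of the series. The mice were of the NOD strain, in which dams become diabetic spontaneously, and both tissues of every pair developed in a diabetic dam at E8.5. The diabetic dams had been mated to normoglycemic NOD males. The dams had a blood glucose of 423 to 568 mg/dl. The 16 concepti came from 6 litters, and 7 of them from the single litter D24M15. By the labels 8 were male and 8 female, and 4, 9 and 3 of the embryos had 7, 8 and 9 somite pairs. For comparison, 16 pairs of the same stage from 7 normal litters (109 to 135 mg/dl) and 17 pairs of the 5-6 somite stage from 9 diabetic litters were used, with 3 diabetic litters contributing concepti to both stages.

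In the mouse, the visceral yolk sac surrounds the embryo and feeds it before the chorioallantoic placenta works. Its outer layer, the visceral endoderm, takes up maternal proteins and lipids by endocytosis, breaks them down in lysosomes, and secretes carrier proteins and lipoproteins as the liver does later. Its inner mesoderm forms the first red blood cells and vessels. The embryo at this stage is closing its neural tube, adding somites from a growing tail end, and starting its heart.

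RNA was measured by sequencing the 3′ ends of transcripts, with molecular tags so that each count stands for 1 molecule. The embryo libraries held 1330731 to 3093423 counts and the yolk sac libraries 1017901 to 3122678. Levels are given below as normalised counts, the counts of a library divided by its size factor. The yolk sac library of conceptus D28M36C stood apart. It had the fewest counts, the transcript Gm42418 took 21.2% of them against at most 5.57% in the other yolk sacs, and its median correlation with the other yolk sacs was 0.953 against 0.981 for the next lowest. Embryo D24M15J stood apart in its posterior genes, as described with the Hox genes. Both concepti stay in the values below. They set some of the lowest and highest values without this being said there. Examples are the lowest Cubn value in yolk sacs (D28M36C) and the highest Pax6 value in embryos (D24M15J). Transcripts of the mitochondrial genome took 4.2% ± 0.644 of the counts in embryos and 6.32% ± 1.77 in yolk sacs (SD, n = 16 each), and were higher in the yolk sac in 16 of 16 pairs. The highest yolk sac share, 11.6%, was that of D28M36C, and the next was 9.05%. More genes had a count in the embryo (17046 ± 554) than in the yolk sac (15864 ± 667), and the yolk sac had more in 1 of 16 pairs (exact sign-flip test, two-sided, p = 0.000183, or 0.03125 over the 6 litter means, the smallest that 6 litters allow). The part of depth and mitochondrial share in the differences below was not tested.

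Of 10742 genes tested in the paired model, 3806 (35.4%) were higher and 4123 (38.4%) lower in the yolk sac at an adjusted p under 0.05, 73.8% in all. Tested against a 2-fold threshold, 1312 genes (12.2%) were higher and 1182 (11%) lower, and these calls are named below as past 2-fold. Counts of list members below are to be read beside these shares over all genes. The normalised counts of the 16 embryos and the 16 yolk sacs did not overlap for 2083 genes (19.4%). The genes with the greatest difference toward the yolk sac, by the rule used to name genes, were Aqp8, Afp, Dram1, Apoa2, Slc2a2, Apoa1, Apoa4, Hbb-bh1, Slc17a4 and Fabp2, between 6.42 and 6.09 on the log2 scale. Toward the embryo they were Pax6, Hes5, Otx2, Mir124-2hg, Tfap2b, Irs4, Foxb1, Sox1, Meox1 and Hes3, between -8.60 and -7.44. For 6294 genes (58.6%) the 95% interval of the difference lay within 2-fold. Among the most abundant transcripts, Gm42418, mt-Rnr2, mt-Nd1, mt-Nd2, mt-Nd4, Hsp90ab1 and Actb were in the top 10 of both tissues, Rps20 and Chchd2 in that of the embryo, and H19, mt-Cytb and mt-Rnr1 in that of the yolk sac. In bulk tissue, fewer cells of a type and less RNA per cell cannot be told apart.

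**Figure D1:**
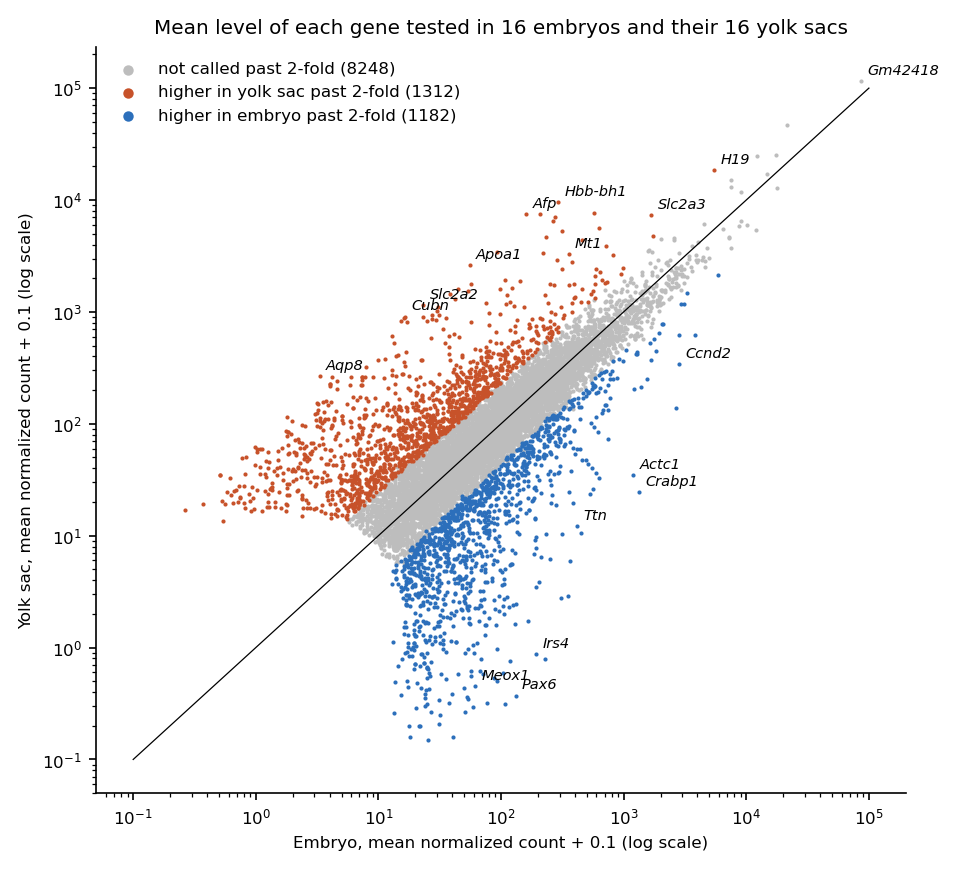
Mean normalised count of each of the 10742 genes in 16 embryos (horizontal) and their 16 yolk sacs (vertical), both on log scales after adding 0.1, with the line of equal level. The 1312 genes called past 2-fold toward the yolk sac lie above the grey band and the 1182 called toward the embryo below it, with Afp, Apoa1 and Aqp8 far above and Pax6, Meox1 and Irs4 far below.

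Genes of proteins secreted by the visceral endoderm were far higher in the yolk sac. Of 36 listed genes 15 passed the filter on low counts, and those 15 were higher in the yolk sac past 2-fold, with a median log2 difference of 5.17 beside -0.03 over the 10742 genes tested. A gene that passes the filter only through the tissue where it is high has to differ, so such counts describe the tested members and nothing more. With no filter 34 members could be fitted, of which 23 were higher and 4 lower, with a median of 4.30. Afp, the fetal carrier protein alpha-fetoprotein (chr5:90490737-90508907), had 23.1, 73.2 and 700.3 normalised counts in the lowest, median and highest embryo and 5139, 7365 and 11271 in the yolk sacs, a log2 difference of 6.41 ± 0.43 (SE, n = 16 pairs, adjusted p = 2.4e-12). Ttr, which carries thyroid hormone, ranged from 41.1 (median 188) to 892 in embryos and from 3336 (median 7016) to 11386 in yolk sacs, a log2 difference of 5.17 ± 0.39. Rbp4, which carries retinol in plasma, had 39.1 to 742 in embryos and 2372 to 10086 in yolk sacs, a log2 difference of 5.67 ± 0.38. For these genes no yolk sac reached down to the highest embryo, and the embryo values spread far more widely than the yolk sac values. Fga, which encodes a chain of fibrinogen, differed by 5.93 ± 0.37 and was at 0 in 4 embryos, while the clotting factor F5 had the least difference of the list at 2.58 ± 0.23.

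The genes of lipoprotein assembly were also higher in the yolk sac, 16 of the 17 tested of 24 listed, and 13 past 2-fold. The exception was Dgat1 (-0.19 log2). The apolipoprotein genes Apoa1, Apoc3, Apoa4 and Apoa5 lie together on chromosome 9, with Apoa1 at chr9:46228580-46230466 and Apoa4 at chr9:46240696-46243459. Apoa1, the main protein of high density lipoprotein, had 4.05, 25.8 and 245 in the lowest, median and highest embryo against 1851, 2459 and 4057 in the yolk sacs (6.22 ± 0.42 log2, adjusted p = 2.06e-12). Apob, the structural protein of very low density lipoprotein, had 2.99 (median 17.6) to 210.1 in embryos and 561 (median 1173) to 8564 in yolk sacs (5.60 ± 0.43 log2), and its highest value was that of the D28M36C yolk sac, without which the difference was 5.41. Apoe, which directs lipoprotein uptake, had 111 to 704 in embryos and 3907 to 7687 in yolk sacs, a fold of 19.2. Mttp, which loads lipid onto apolipoprotein B, was 16.4-fold higher and Soat2, which esterifies cholesterol, 45.8-fold higher. The embryo and yolk sac ranges of these genes did not overlap. Without D28M36C the list kept 16 of 17 called higher and 13 past 2-fold, with a median of 4.74.

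Transcription factors of the endoderm did not move as a block. Of 28 listed 19 were tested, 13 were higher in the yolk sac and 4 lower. Hnf4a, a regulator of liver and visceral endoderm genes, had 0 to 12.7 (median 2.40) in embryos and 169 to 294 (median 249) in yolk sacs, a log2 difference of 5.88 ± 0.25. Creb3l3, a factor that controls lipid genes, differed by 6.05 ± 0.30. The members lower in the yolk sac were Nr2f1 (-5.67), Foxa1 (-2.21), Cdx2 (-1.72) and Nr2f2 (-1.51), factors that also act in neural tissue, gut endoderm, the tail end and mesenchyme. Genes of epithelial adhesion showed the same split, with 25 of 34 tested (44 listed) higher and 5 lower. Vil1, a protein of the microvillus core, differed by 5.21 ± 0.25, and the tight junction gene Cldn2 by 5.02 ± 0.38. The epithelial cadherin Cdh1 was 2.59-fold higher in the yolk sac with overlapping ranges, while the neural and mesenchymal cadherin Cdh2 was 27.6-fold higher in the embryo.

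Genes of protein uptake and degradation were mostly higher in the yolk sac. Of 32 endocytic receptors and adaptors 30 were tested, 23 were higher and 5 lower in the yolk sac, and 18 were higher past 2-fold. Cubn, the receptor cubilin (chr2:13276338-13491813), had 1.10 (median 9.36) to 66.8 in embryos and 375 (median 889.7) to 1432 in yolk sacs, a log2 difference of 6.08 ± 0.36 (adjusted p = 1.88e-13). Its partner Amn differed by 5.47 ± 0.35 and the co-receptor Lrp2, which is also made in the neural plate, by 2.86 ± 0.12. The adaptor Dab2 had 117 to 452 in embryos and 2519 to 4344 in yolk sacs, a fold of 16.1. Clathrin heavy chain, Cltc, which every cell uses, was 2.74-fold higher in the yolk sac, also without overlap. Vldlr, a lipoprotein receptor, went the other way and was 7.45-fold higher in the embryo.

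Of 50 lysosomal genes 46 were tested, 43 were higher in the yolk sac, and 33 were higher past 2-fold, with a median of 1.61 log2. The difference was greatest for Plbd1, a phospholipase-like protein (5.41 ± 0.27), and for the protease Ctsh (5.29 ± 0.36). Ctsb, a cysteine protease, had 81.3, 114 and 203 in the lowest, median and highest embryo and 1247, 1588 and 2073 in the yolk sacs (3.73 ± 0.12 log2, adjusted p = 1.18e-17). Lgmn, an asparagine-specific protease, was 18.9-fold and the membrane protein Lamp1 2.85-fold higher in the yolk sac. Tfeb, a transcription factor that controls lysosomal genes, had 0 to 9.27 (median 2.88) in embryos and 40.6 to 102 (median 56.5) in yolk sacs. The protease gene Ctsf (-1.63) and the glucuronidase gene Gusb (-0.98) were lower in the yolk sac.

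The promoters of Atp6v1a, a subunit of the proton pump that acidifies the lysosome (1.92 ± 0.09 log2), and of Ctsa, a lysosomal protease (1.79 ± 0.13), are shown for the palindrome TCACGTGA, the core of the motif bound by TFEB. The windows run from 250 bases before to 50 bases after the transcript start, 5′ to 3′ in the direction of the gene (Atp6v1a, chr16:44139210-44139509, minus strand; Ctsa, chr2:164833523-164833822, plus strand; RefSeq, GRCm38.p6). Capitals mark the match, which reads the same on both strands. The motifs shown here and below were chosen with the lists and their matches in view, and a match describes the letters only.
Atp6v1a: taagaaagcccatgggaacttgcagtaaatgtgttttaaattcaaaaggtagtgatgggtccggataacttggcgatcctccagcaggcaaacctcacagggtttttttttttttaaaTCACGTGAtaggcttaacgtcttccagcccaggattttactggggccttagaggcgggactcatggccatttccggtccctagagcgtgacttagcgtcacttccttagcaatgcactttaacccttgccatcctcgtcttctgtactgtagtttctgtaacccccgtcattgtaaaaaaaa
Ctsa: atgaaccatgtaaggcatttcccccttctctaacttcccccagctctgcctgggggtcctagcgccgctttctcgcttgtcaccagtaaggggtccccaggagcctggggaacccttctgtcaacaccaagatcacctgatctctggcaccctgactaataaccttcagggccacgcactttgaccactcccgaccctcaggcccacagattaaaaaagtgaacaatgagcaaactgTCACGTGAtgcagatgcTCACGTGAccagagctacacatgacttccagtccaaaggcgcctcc
Of 40 listed genes with a window 6 (15%) held the palindrome, beside 1.12% of the 27025 genes with a window and 2.41% of the tested genes with one. A gene counted if any of its windows held the letters. The Ctsa window shown, 1 of 2 for that gene, held 2 copies, 1 on each side of the start. Of the genes past 2-fold with a window, 2.78% held it among those higher in the yolk sac and 0.844% among those higher in the embryo.

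Nutrient transporters divided by family member. Of 22 glucose and fatty acid transporter genes chosen by the study, 10 were tested, of which 6 were higher and 4 lower in the yolk sac. The study that chose this list also reported on these libraries, so its counts are no independent evidence of direction. Slc2a2, the high-capacity glucose transporter of liver (chr3:28697903-28731359), had 2.02, 7.12 and 113 in the lowest, median and highest embryo and 805, 1115 and 1496 in the yolk sacs (6.27 ± 0.42 log2, adjusted p = 1.91e-12). Slc2a3, a high-affinity glucose transporter, was present in both tissues, with 1375 to 2369 in embryos and 3112 to 9294 in yolk sacs (2.08 ± 0.10). Slc2a1, the general glucose transporter, had 1168 to 2218 in embryos and 1292 to 3610.4 in yolk sacs (0.72 ± 0.09), and these ranges overlapped although the yolk sac was higher in 16 of 16 pairs. Thus the 3 glucose transporters named here differed in the same direction and by very different amounts. Cpt1c, a brain form of carnitine palmitoyltransferase, was 4.14-fold higher in the embryo, and the fatty acid transporter Cd36 1.68-fold, a call that was lost without litter D24M15 (adjusted p = 0.0646).

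Of 39 amino acid transporters 26 were tested, 16 were higher and 7 lower in the yolk sac. Those with the greatest difference were Slc7a8 (5.73 ± 0.31), Slc7a9 (5.69 ± 0.28) and Slc7a7 (4.47 ± 0.20), exchangers of epithelia that move neutral and basic amino acids. Slc7a3, a transporter of basic amino acids, was 3.99-fold higher in the embryo, and Slc38a2, which takes up small neutral amino acids, 2.17-fold. Genes of iron, heme and metal handling were higher in the yolk sac in 25 of 27 tested (32 listed). Mt1 and Mt2, the metallothioneins that bind zinc and copper, were 9.55-fold and 9.94-fold higher. The iron exporter Slc40a1 had 4.05 to 20.1 in embryos and 99.9 to 267 in yolk sacs, and the ferritin gene Fth1 was 5.44-fold higher. The exception past 2-fold was Heph, a ferroxidase, at -1.61 log2.

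Genes of fatty acid binding and oxidation were higher in the yolk sac in 23 of 28 tested (33 listed) and lower in 4. Fabp1, the liver form of fatty acid binding protein, had 0 to 9.75 (median 0.818) in embryos and 40.6 to 228 (median 104) in yolk sacs. Fabp5 was 4.88-fold and the fatty acid synthase gene Fasn 2.12-fold higher in the embryo.

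Primitive red cell genes were higher in the yolk sac in each of the 18 tested of 24 listed, 17 of them past 2-fold, with a median of 4.79. Hbb-bh1, an embryonic beta-like globin (chr7:103841637-103843164), had 14.2 to 1549.7 in embryos and 3564 (median 8460.3) to 23691 in yolk sacs (6.14 ± 0.48 log2). Hba-x, the embryonic alpha-like globin, differed by 5.93 ± 0.43, and Hbb-y by 5.70 ± 0.46. Reads of globin genes may be shared among near-identical copies, so the split between members is uncertain. The embryo values spread over 2 orders of magnitude, and the 3 highest sums of red cell markers were in embryos D28M36D, D28M23B and D24M15G. Gata1, the factor that directs red cell genes, had 0 to 10.9 in embryos and 33.0 to 156 in yolk sacs. Lmo2, which red cell and vessel precursors share, differed least (0.68 ± 0.17), and with 1 conceptus per litter it was not called (adjusted p = 0.15).

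The promoters of Hemgn, a nuclear protein of red cell precursors (5.48 ± 0.29), and Epb42, a protein of the red cell membrane (4.78 ± 0.37), are shown for the letters AGATAA, the motif of GATA factors (Hemgn, chr4:46404134-46404433, minus strand; Epb42, chr2:121036828-121037127, minus strand; RefSeq, GRCm38.p6). Capitals mark the match on either strand.
Hemgn: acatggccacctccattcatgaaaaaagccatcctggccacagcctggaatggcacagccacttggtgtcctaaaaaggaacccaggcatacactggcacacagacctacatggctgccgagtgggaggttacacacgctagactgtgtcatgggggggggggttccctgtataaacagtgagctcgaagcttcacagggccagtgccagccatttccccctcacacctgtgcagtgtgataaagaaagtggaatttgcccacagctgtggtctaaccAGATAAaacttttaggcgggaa
Epb42: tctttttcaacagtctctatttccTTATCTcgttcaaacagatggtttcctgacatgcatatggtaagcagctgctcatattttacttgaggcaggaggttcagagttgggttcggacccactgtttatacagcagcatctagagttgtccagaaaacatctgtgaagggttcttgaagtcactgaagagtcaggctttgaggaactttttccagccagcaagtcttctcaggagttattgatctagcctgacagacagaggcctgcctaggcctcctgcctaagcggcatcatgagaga
Of 16 listed genes with a window 6 (37.5%) held these letters on either strand, beside 12.7% of the 27025 genes with a window. The share was 9.93% for genes higher in the yolk sac past 2-fold and 7.11% for all genes tested.

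Vessel genes had a median difference of 0.90, beside 4.79 for the red cell genes. Of 30 listed 25 were tested, 19 were higher in the yolk sac, 2 lower and 4 not called, and 4 were higher past 2-fold. Tek, the angiopoietin receptor, had 18.7 to 51.7 in embryos and 92.3 to 184 in yolk sacs (2.06 ± 0.13), and the vascular cadherin Cdh5 differed by 1.68 ± 0.16. Kdr, the main receptor for vascular endothelial growth factor, had 322 (median 436) to 808 in embryos and 186 (median 517) to 692 in yolk sacs, and its difference of 0.03 ± 0.13 was not called (95% interval -0.24 to 0.29). Etv2, a factor of early vessel precursors, was 7.67-fold higher in the embryo without overlap. The 5 tested genes of hemogenic and other blood cells (17 listed) included Runx1, the factor of emerging blood stem cells (4.27 ± 0.28), the macrophage receptor Mrc1 (4.5 ± 0.25), and Kit (-1.39 ± 0.20), the receptor that was higher in the embryo.

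Of 20 listed genes of extraembryonic mesoderm, measured here in whole yolk sacs, 17 were tested, of which 9 were higher in the yolk sac, 4 lower and 4 not called. Lum, a collagen-binding proteoglycan, had 7.14 to 25.8 in embryos and 85.9 to 411 in yolk sacs (3.72 ± 0.14). Postn, a matrix protein of mesenchyme, differed by 3.67 ± 0.28, and Hand1, a factor of extraembryonic mesoderm and heart, by 1.80 ± 0.17. The WNT agonist gene Rspo3 was lower in the yolk sac (-2.57 ± 0.28). Matrix genes as a whole divided likewise, 23 of 35 tested (42 listed) higher and 11 lower, with the basement membrane collagen Col4a1 4.11-fold higher in the yolk sac and the cartilage and notochord collagen Col2a1 30.3-fold higher in the embryo.

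**Figure D2:**
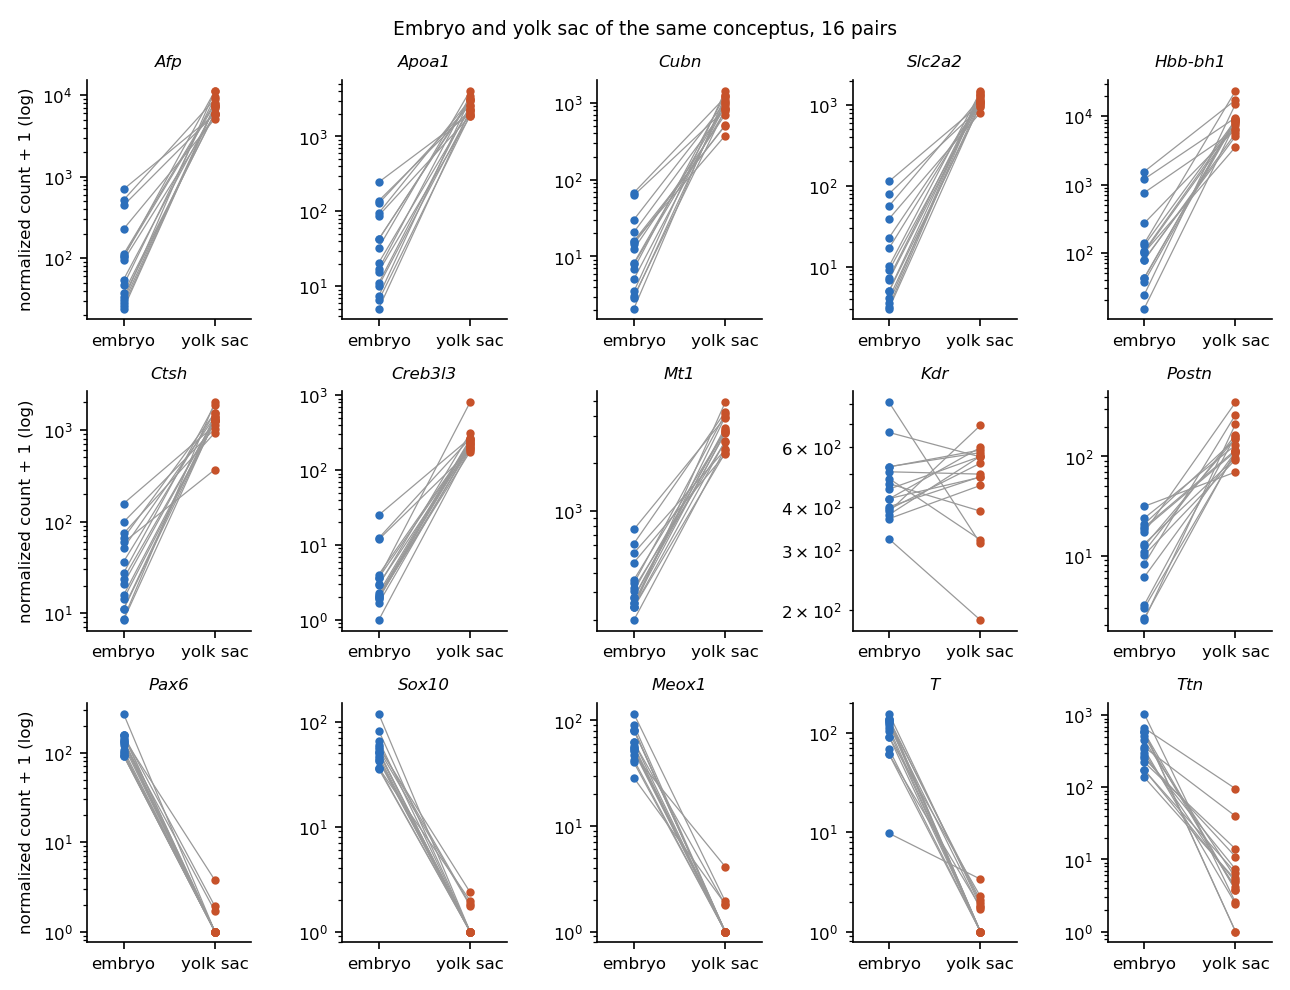
Normalised count plus 1 (log scale) of 15 genes in the embryo (blue) and yolk sac (orange) of each of 16 concepti, joined by a line per conceptus. Lines rise in all 16 pairs for Afp, Apoa1, Cubn, Slc2a2, Hbb-bh1, Ctsh, Creb3l3, Mt1 and Postn, cross for Kdr, and fall in all 16 pairs for Pax6, Sox10, Meox1, T and Ttn, with 1 embryo low in T.

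Toward the embryo, neural genes differed by a wide margin. Of 40 listed 28 were tested and those 28 were lower in the yolk sac, 27 past 2-fold, with a median of -6.28. With no filter 39 of the 40 were lower. Pax6, a factor of the eye and neural tube (chr2:105668900-105697364), had 91.4, 129 and 269.8 in the lowest, median and highest embryo and was at 0 in 13 yolk sacs, with at most 2.75 in the others (-8.60 ± 0.25, adjusted p = 2.74e-18). Otx2, which specifies forebrain and midbrain, had 147 to 391 in embryos and 0 to 2.92 in yolk sacs. Sox2, a factor of neural progenitors, had 200.1 to 445 in embryos and 0 to 9.31 in yolk sacs, a fold of 105. Hes5, a target of Notch signalling in neural progenitors, had 60.1 to 151 in embryos and was at 0 in 14 yolk sacs. The host transcript of a neural microRNA, Mir124-2hg, had 691 counts in all 16 embryos together and 1 in the yolk sacs, a ratio of 709 with a counting interval of 127 to 28060. Yolk sac values of this kind rest on 0 to a few molecules, and the fitted fold of such a gene depends on the small count that the model adds. The SE of such a gene comes from the test statistic, does not give the counting error of so few molecules, and may be too small. Nkx6-1 had 844 counts in embryos and 3 in yolk sacs, a ratio of 289 with a counting interval of 98.5 to 1403. This limit also holds for genes near 0 in the yolk sac named below.

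The Hes5 promoter (chr4:154960673-154960972, plus strand; RefSeq, GRCm38.p6) is shown for GTGGGAA, the motif of the Notch effector RBPJ, which it holds on both strands. Capitals mark the matches.
Hes5: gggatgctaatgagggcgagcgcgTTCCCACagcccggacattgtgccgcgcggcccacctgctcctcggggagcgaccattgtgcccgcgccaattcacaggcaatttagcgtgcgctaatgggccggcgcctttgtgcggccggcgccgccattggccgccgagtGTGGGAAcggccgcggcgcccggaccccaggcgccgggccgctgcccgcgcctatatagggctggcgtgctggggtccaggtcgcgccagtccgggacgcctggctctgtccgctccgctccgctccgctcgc
Of 27 listed neural genes with a window 2 (7.41%) held this motif, beside 7.25% of the 27025 genes with a window. The list as a whole did not stand apart in these letters.

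Neural crest genes were mostly higher in the embryo, with 12 of 17 tested (19 listed) lower in the yolk sac and 2 higher. Tfap2b and Sox10, factors of crest cells, differed by -7.82 ± 0.27 and -7.31 ± 0.27. The endothelin receptor gene Ednrb, also made in mesenchyme and vessels, was higher in the yolk sac (1.81 ± 0.13). Of 29 somite and presomitic genes 14 were tested and 13 were lower in the yolk sac past 2-fold. Meox1, a somite factor, had 27.5 to 114 in embryos and at most 3.12 in yolk sacs, which were at 0 in 12 of 16. Lfng, which tunes the Notch clock of the presomitic mesoderm, was 81.7-fold higher in the embryo. Tailbud genes were lower in the yolk sac in 16 of 18 tested (24 listed). The member higher in the yolk sac was Cyp26a1, which breaks down retinoic acid, with 29.1 to 101 in embryos and 25 to 179 in yolk sacs (0.82 ± 0.19, not called with 1 conceptus per litter, adjusted p = 0.0871).

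Hox genes, which pattern the body along its axis, were lower in the yolk sac in 21 of 23 tested (39 listed), 18 past 2-fold, with a median of -3.37. The greatest difference was that of Hoxb9 (-5.93 ± 0.28), and Hoxb6 differed by 0.17 and was not called. Embryo D24M15J, with 8 somite pairs by its label, departed from the other 15 embryos in these genes. It was the lowest of the 16 embryos in 21 of 23 Hox genes. In paralog groups 6 to 9, which act in the trunk, its level was below that of the others in 10 of 10 genes, at a median of 1.70% (0.396 to 10.1%) of the others' median. In groups 1 to 5, which act in the hindbrain and neck, it was below the others in 11 of 13 genes at a median of 30.8%. Hoxa7 was at 2.02 in this embryo and 185.9 to 342 in the others.

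The tailbud genes followed in the same embryo. T, the mesoderm factor brachyury, was at 8.77 there and 60.1 to 155 in the other embryos. Cdx4, a regulator of trunk Hox genes, had no count in it, which at this depth allows up to 3 counts, and 71.1 to 221 in the others. It was the lowest embryo for 11 of 18 tailbud genes and the highest for 18 of 28 neural genes. Somite genes were mixed, with Hes7 of the segmentation clock at 1.35 (others 32.5 to 102) and the somite gene Meox1 at 61.4 (others 27.5 to 114). Its own yolk sac had the highest sum of cardiac markers of the 16 (506, others at most 215), and Aldh1a2 was at 21.4 in it against a median of 0.767 in the other yolk sacs. Without this conceptus 23 of 24 tested Hox genes were lower in the yolk sac, 20 past 2-fold, with a median of -3.45, 17 of 18 tailbud genes were lower, and 15 of 15 tested somite genes were lower. What the libraries of this conceptus held was not tested.

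Heart genes were lower in the yolk sac in 29 of 33 tested (41 listed) and higher in 3. Ttn, the muscle protein titin, had 137 (median 349.6) to 1048 in embryos and 0 (median 4.06) to 95 in yolk sacs (-5.54 ± 0.39), the highest being the D24M15J yolk sac, without which the difference was -5.94. Actc1, cardiac actin, was 45.7-fold and the ventricular myosin gene Myl2 131-fold higher in the embryo. Gata4 (1.81 ± 0.11), Hand1 and Tbx20, factors that heart and extraembryonic tissue share, were higher in the yolk sac. Secreted signals were lower in the yolk sac in 19 of 27 tested (47 listed). Fgf8, which acts in the tail end and brain, was 93.4-fold and the WNT inhibitor gene Sfrp1 24.4-fold higher in the embryo. The members higher in the yolk sac were Ihh, the hedgehog ligand of visceral endoderm (3.49 ± 0.22), and Vegfa, the vessel growth factor (0.99 ± 0.14).

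Several groups went both ways, as all genes tested did (35.4% higher and 38.4% lower in the yolk sac). Of 51 imprinted genes 43 were tested, 21 were higher in the yolk sac, 14 lower and 8 not called. H19, a non-coding RNA (chr7:142575529-142578143), had 3359 to 10582 in embryos and 11783 to 29293 in yolk sacs (1.76 ± 0.11), and its neighbour Igf2, a fetal growth factor, 614 to 1382 and 1516 to 4603 (1.27 ± 0.12). Sfmbt2, a Polycomb gene of extraembryonic tissue, was 20.6-fold higher in the yolk sac, while Grb10, which restrains insulin signalling, was 3.21-fold and Peg12 9.07-fold higher in the embryo. Slc22a2 (4.64 ± 0.39) had its highest value, 478 against a yolk sac median of 41.3, in D28M36C, without which the difference was 4.37. Among insulin and IGF genes 6 of 16 tested (19 listed) were higher and 8 lower, from Igfbp1, a binding protein of IGFs (4.28 ± 0.27), to Igf1r, the IGF receptor (-1.34 ± 0.13), and Irs4, an adaptor of that pathway (-7.80 ± 0.26).

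Retinoid genes also went both ways. Of 29 listed 19 were tested, 7 (36.8%) were higher and 8 (42.1%) lower in the yolk sac, near the shares over all genes. Rbp4, described above, and Bco1, which cleaves carotene to retinal, were higher in the yolk sac, Bco1 by 36-fold. Aldh1a2, which makes retinoic acid, had 25 to 133 in embryos and 0 to 21.4 in yolk sacs, and the retinol receptor gene Stra6 and the retinoic acid binding protein gene Crabp1 were 19.1-fold and 55.7-fold higher in the embryo. Genes of glycolysis and glucose response also divided within families. Pklr, the liver form of pyruvate kinase, differed by 4.40 ± 0.31, and Pkm, the other pyruvate kinase gene, by -1.36 ± 0.09. The monocarboxylate transporter Slc16a1 was 6.99-fold higher in the yolk sac and Slc16a3 5.97-fold higher in the embryo, both without overlap. In all, 8 of the 32 tested (39 listed) were higher and 16 lower. Of 30 sterol genes tested (35 listed) 11 (36.7%) were higher and 10 (33.3%) lower. These shares lay near those over all genes tested (35.4% and 38.4%). The cholesterol carrier Stard4 differed by 2.13 ± 0.10.

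Cell cycle genes leaned toward the embryo, mostly by small amounts. Of 45 listed 44 were tested, 5 (11.4%) were higher in the yolk sac, 21 (47.7%) lower and 18 not called, with a median of -0.16. Over all genes tested 35.4% were higher and 38.4% lower. Mki67, a marker of dividing cells, differed by 0.14 ± 0.10 (95% interval -0.08 to 0.35), and without litter D28M23 by 0.29, which was called (adjusted p = 0.0159). The exceptions past 2-fold included the cyclin gene Ccnd2, with 2343 to 3883 in embryos and 187 to 542 in yolk sacs, and Mycl at -3.84 ± 0.15. None of the 79 tested ribosomal protein genes (88 listed) was called past 2-fold, 7 were higher and 36 lower at an adjusted p under 0.05, and their many pseudogene copies make single members uncertain. Of 13 mitochondrial mRNAs 7 were tested, from mt-Cytb (1.02 ± 0.10) to mt-Nd6 (-1.78 ± 0.22).

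**Figure D3:**
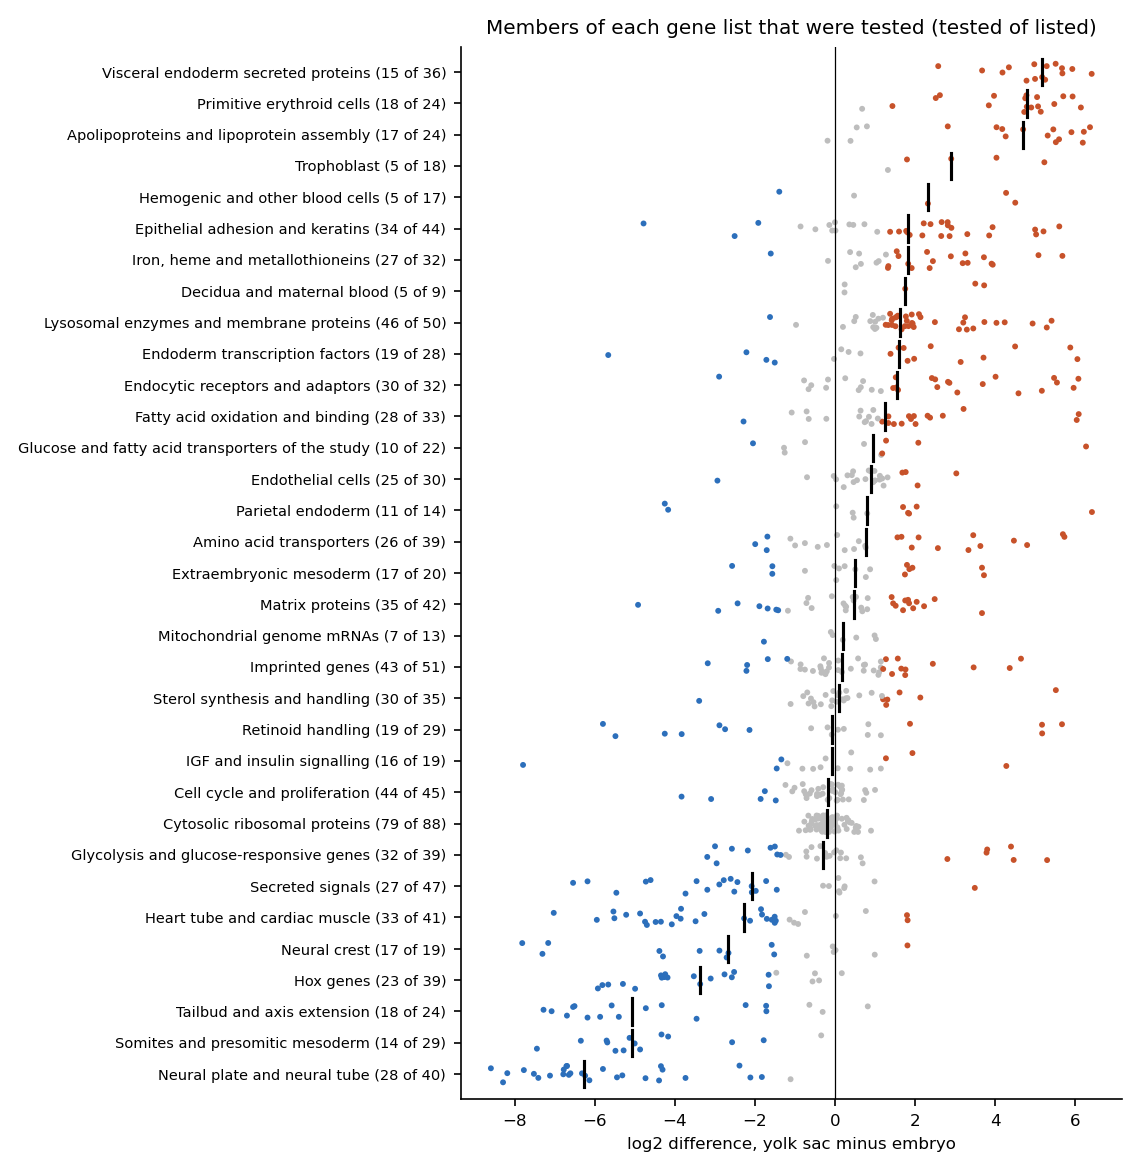
Log2 difference, yolk sac minus embryo, of the tested members of 33 gene lists (tested of listed in brackets), with a bar at each list's median and colour for calls past 2-fold (orange toward yolk sac, blue toward embryo). Medians run from 5.17 for secreted proteins of the visceral endoderm to -6.28 for neural genes, and lists such as imprinted, retinoid and glycolysis genes spread to both sides of 0.

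Defining markers of each tissue were present in its own libraries. The summed normalised count of 10 visceral endoderm markers was 21932 to 42666 in yolk sacs and 134 to 3208 in embryos, and each embryo held 0.436 to 12.1% (median 1.42%) of the sum in its own yolk sac. For 7 red cell markers the sums were 13891 to 44334 and 39.0 to 4457. For 10 neural markers they were 33.9 to 110 in yolk sacs and 2045 to 3663 in embryos, and for somite markers 2.38 to 15.7 and 140 to 462. Endothelial markers overlapped, with 711 to 1582 in yolk sacs and 549 to 1216 in embryos. The embryos highest in visceral endoderm markers were D24M15G, D23M26A and D28M23B, and the part of such RNA in the embryo values was not tested.

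Sums of markers of neighbouring tissues were also compared. Parietal endoderm markers summed to 2664 to 6491 in yolk sacs and 825 to 1735 in embryos, and trophoblast markers to 31.2 to 258 and 5.40 to 50.7. Of 7 trophoblast markers 1 was tested, and Prl3d1, Prl2c2, Prl3b1 and Tpbpa, which define trophoblast cells, were at 0 in the median yolk sac. Decidual markers summed to 49.9 to 756 and 21.4 to 68.8, with the highest in the D24M15A yolk sac, and 1 of the 2 decidual markers tested (4 listed) was higher in the yolk sac. The adult globins of maternal blood summed to 105 to 662 in yolk sacs and 1.52 to 219 in embryos, the highest of both being those of D28M36C, and the next highest were 575 and 126. On the gene lists, 8 of 11 tested parietal endoderm genes (14 listed), 5 of 5 trophoblast genes (18 listed) and 3 of 5 decidua and maternal blood genes (9 listed) were higher in the yolk sac. The parietal endoderm list holds Aqp8, named above as the gene with the greatest difference toward the yolk sac. The 5 trophoblast genes include Tfeb and Hand1, which other lists here also hold. Rhox6, a trophoblast homeobox gene, had 0 to 17.7 in embryos and 15.6 to 675 in yolk sacs. The part of these tissues in the differences between yolk sac and embryo was not tested. Levels of sex-linked genes matched the labelled sex in both tissues of the 16 pairs. Xist was not absent from labelled males, with 2.20 to 188 in embryos and 3.80 to 80.2 in yolk sacs. In females it was at least 1569 and 1419. The source of Xist counts in males was not tested. In the groups used for comparison, the labels of conceptus N28M07E (normal pregnancies) give a male embryo and a female yolk sac. Those of D28M27C (diabetic pregnancies, earlier somite stage) give a female embryo and a male yolk sac. Both concepti were kept as pairs in the comparisons below. Whether their labels or their pairing are wrong was not tested.

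**Figure D4:**
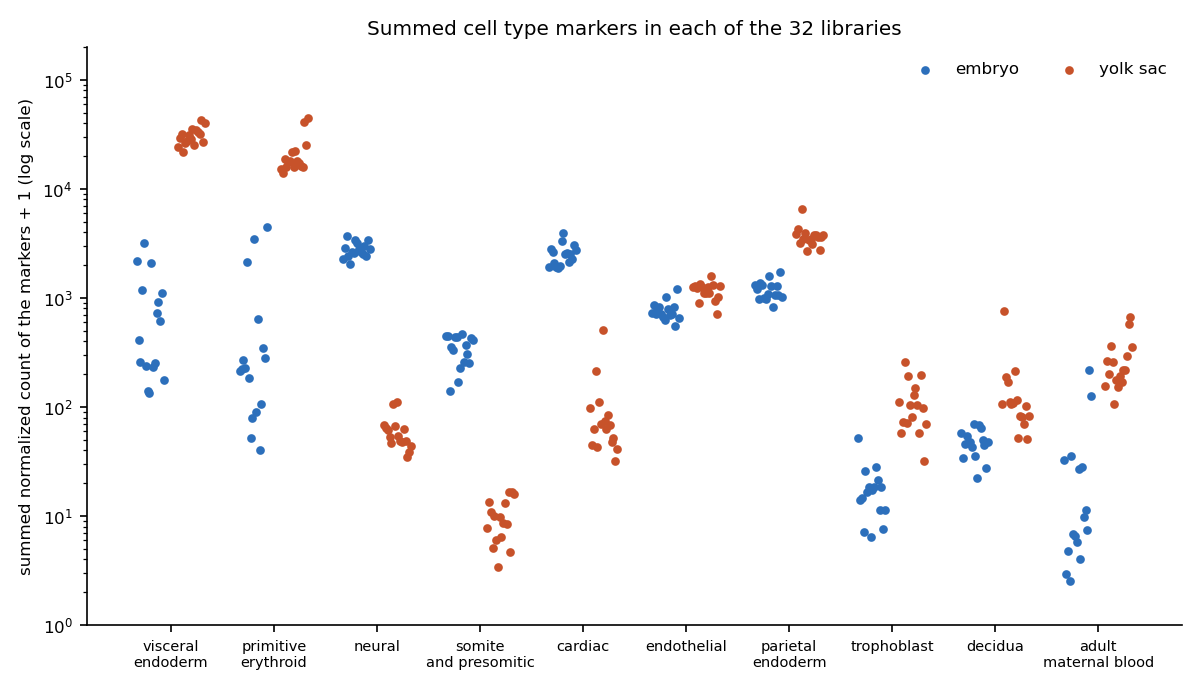
Summed normalised count plus 1 (log scale) of the markers of 10 tissues or cell types in each of 16 embryo (blue) and 16 yolk sac (orange) libraries. Visceral endoderm, red cell, neural, somite, cardiac and parietal endoderm sums do not overlap between the tissues. Endothelial sums do, and 1 yolk sac is high in cardiac and 1 in decidual markers.

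The tissue difference was then set beside that of normal pregnancies of the same stage, with a test of whether the yolk sac minus embryo difference itself changed. Of 11577 genes tested it was higher in diabetic pregnancies for 27 (0.233%) and lower for 20 (0.173%), while 2092 genes had an unadjusted p under 0.05, and for 97.96% of genes the estimated change lay within 2-fold. Of the 1312 genes past 2-fold toward the yolk sac in diabetic pregnancies 1311 had the same sign in normal ones, and of the 1182 toward the embryo 1181. These genes were chosen for a large difference, and over all 11577 genes 88.96% had the same sign. The immediate early gene Egr1 differed most, with a tissue difference of -0.54 in normal and 2.12 in diabetic pregnancies (a change of 2.66 ± 0.53, adjusted p = 0.013). Its mean was 87.5 ± 78.7 in normal and 18.4 ± 12.9 in diabetic embryos, and 56.7 ± 46.7 and 97.8 ± 105 in the yolk sacs (SD, n = 16 each). Tmem245, a membrane protein gene, went the other way by -1.76 ± 0.32, with means of 259 ± 127 in normal and 1257 ± 769 in diabetic embryos. Among the endocytic receptors Lrp1 was called, with a change of 0.97 ± 0.20, and no member of the lists of secreted proteins, apolipoproteins, lysosomal genes or red cell genes was. Without D28M36C 35 genes had a lower tissue difference, and without D24M15J 34 did. With the counts summed per litter no gene was called in either direction, beside 182 higher and 154 lower with DESeq2.

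Against the 5-6 somite stage of diabetic pregnancies, 101 of 11757 genes (0.859%) had a higher and 156 (1.33%) a lower tissue difference at 7-9 somites, and 2221 had an unadjusted p under 0.05. The same diabetic 7-9 somite pairs enter both of these comparisons. Among genes past 2-fold, 1311 of 1312 and 1180 of 1182 had the same sign at the earlier stage, beside 89.62% of all 11757 genes. The red cell list changed most, with a median of -1.37 over 22 tested genes, 2 of them called. For Hba-x the tissue difference was 7.99 in pairs with 5-6 somites and 5.93 in those with 7-9 (a change of -2.06 ± 0.54, adjusted p = 0.0313, or 0.00707 with counts summed per litter). Its mean in embryos was 8.14 ± 8.01 (n = 17) at the earlier and 273 ± 474 (n = 16) at the later stage, while in yolk sacs it was 1951 ± 830 and 6678 ± 4672. Pax6 changed by -2.25 ± 0.62, its embryo mean being 81.2 in the earlier and 136 in the later group, and its yolk sac mean 0.875 and then 0.279. The heart factor Nkx2-5 changed by -2.26 ± 0.63, its embryo mean being 18.5 and then 25.9, and its yolk sac mean 2.45 and then 0.582. Both changes rest in part on yolk sac values near 0, and with counts summed per litter neither was called (adjusted p = 0.14 and 0.287). With counts summed per litter 0 genes were called higher and 4 lower.

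**Figure D5:**
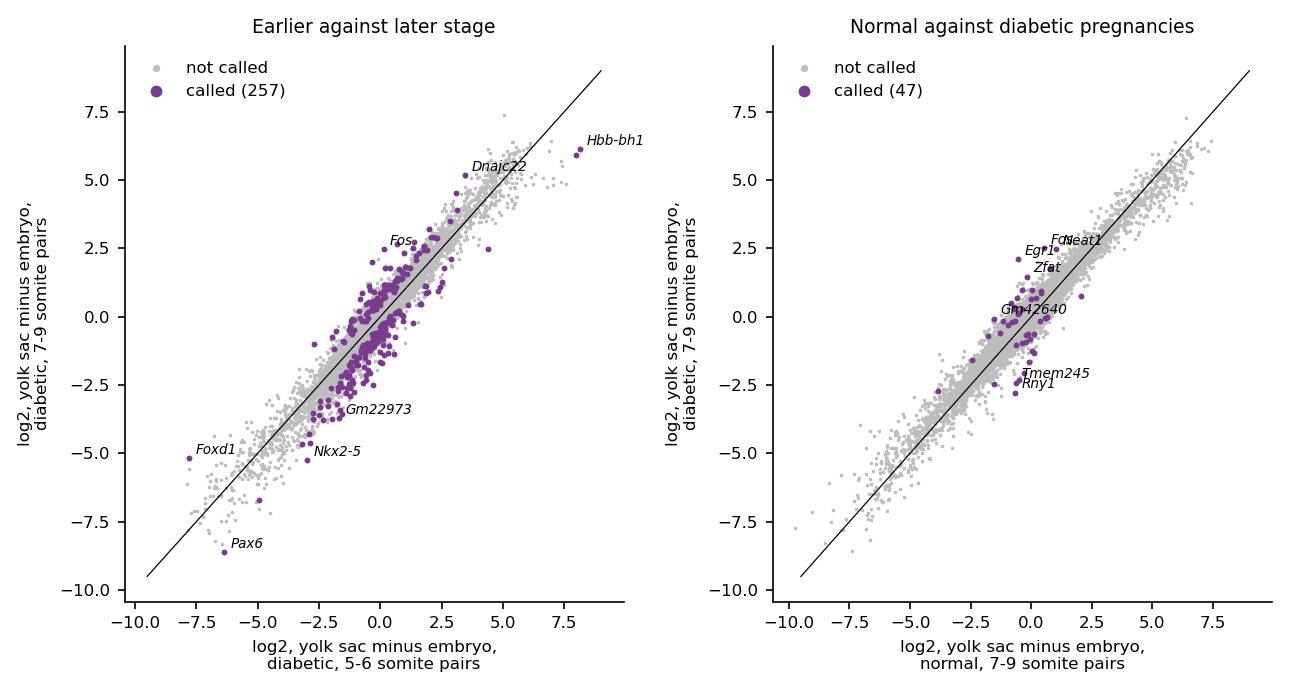
Log2 tissue difference, yolk sac minus embryo, of each gene in diabetic 7-9 somite pairs (vertical) against diabetic 5-6 somite pairs (left) and normal 7-9 somite pairs (right), with the line of equal difference and purple for genes whose difference changed. The points follow the line in both panels, with 257 genes called on the left, among them Hbb-bh1 and Pax6, and 47 on the right, among them Egr1 and Rny1.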

How the data were processed

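RNA was sequenced from embryos and yolk sacs with a 3′ end kit (QuantSeq) carrying molecular tags. Per the labels and the submitters' processing notes, the authors aligned reads with STAR to mm10, collapsed duplicate tags and counted genes with HTSeq (versions and strand setting not given in the sources used here). The deposited count table holds whole molecule counts for 47643 genes, used as deposited. The members and gene lists were chosen with earlier results of these data known.

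Samples were grouped by their labels. edgeR 4.0.16 (R 4.3.3) fitted a quasi-likelihood model with tissue and conceptus as terms, TMM scaling and the filterByExpr filter (minimum count 10), Benjamini-Hochberg adjustment, and a second test against 2-fold. Changes of the tissue difference were tested as interaction terms with the conceptus kept as a block. The SE of a log2 difference was its absolute value divided by the square root of its F statistic, and the intervals were built from it. Levels are counts divided by DESeq2 1.42.0 size factors. Genes were named by rule as the 10 with the greatest difference in each direction among those called, with 1 sign in 16 of 16 pairs and a mean of at least 10, and changes of the difference as the 5 greatest called in each direction; the 10 most abundant genes of each tissue were named too, and from each list the members with the greatest difference and those that went against it. Concepti of 1 litter share a dam, so p-values may be too small. Alternatives covered scaling, filter, tool, block and litters.

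Pairing comes from the shared conceptus. Deviations of an embryo and its own yolk sac from their tissue means correlated at a median of 0.0533 (-0.116 to 0.440), beside 0.0002 for other concepti, and 2 of 16 embryos correlated best with their own yolk sac. On simulated data for this comparison (10742 genes, 200 changed), 95% of 1.5-fold and 100% of 2-fold changes were recovered and 6.25% of calls were false. The simulation held no litter effect, and in the real data 73.8% of genes were called. Its rates need not hold for the real comparison. Near-identical gene copies and overlapping genes share counts and are uncertain as single genes. Some named genes are not reported here. Counts from the 3′ end do not separate isoforms.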

Additional observations from a re-analysis of the deposited data

Results flagged for a closer look

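The tissue difference (yolk sac minus embryo, log2) of 10 rule-named genes differed between diabetic and normal pregnancies at 7-9 somites in the test of the difference itself (edgeR, adjusted p under 0.05). The difference was higher in diabetic pregnancies by 2.66 for Egr1, 1.96 for Fos and 1.44 for the nuclear RNA Neat1. In embryos the mean of Egr1 was 87.5 in normal and 18.4 in diabetic pregnancies, and that of Fos 14.9 and 5.48. Zfat, a zinc finger gene, changed by 1.63 and the unnamed transcript Gm42640 by 1.47. The small RNA Rny1 changed by -2.12, and its mean in diabetic embryos was 191 against 34.3 in normal embryos. The histone genes Hist1h4n (-1.80) and Hist1h2an (-1.76), which have near-identical copies, the membrane gene Tmem245 (-1.76) and the small RNA gene Gm23639 (-1.56) went the same way. With counts summed per litter none of these 10 was called, and their adjusted p lay between 0.154 and 0.371.

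Between the 7-9 and the 5-6 somite stage of diabetic pregnancies, the tissue difference changed for 10 rule-named genes, Fos again among them. It was higher at the later stage for the immediate early genes Fos (2.35) and Fosb (2.34), for the transcription factor Foxd1 (2.60), for the mitochondrial transfer RNA mt-Tw (1.96) and for the chaperone gene Dnajc22 (1.73). For Foxd1 the embryo mean was 50.5 in the earlier and 44.0 in the later group, and the yolk sac mean, near 0, was 0.148 and then 1.04. The tissue difference was lower for the factors Nkx2-5 (-2.26) and Pax6 (-2.25), the embryonic globins Hba-x (-2.06) and Hbb-bh1 (-2.0) and the transcript Gm22973 (-2.04). The means of both globins were higher at the later stage in both tissues. Hbb-bh1 went from 20.8 ± 18.3 to 301 ± 480 in the embryo and from 5099.7 ± 1571 to 9743 ± 5167 in the yolk sac (SD). Its highest values in the later embryos were those of D28M36D, D28M23B and D24M15G. For Fos the mean in yolk sacs was 36.1 ± 52.9 at the later stage (SD, n = 16) and 6.93 ± 4.97 at the earlier one (n = 17). Fos is called in both comparisons, which share the diabetic 7-9 somite pairs. With counts summed per litter Hba-x was called (adjusted p = 0.00707), and the other 9 were not (adjusted p from 0.0633 for Hbb-bh1 to 0.371 for Fosb).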

How the results depend on the processing

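Precision was limited by depth for genes near 0 in one tissue, and by the 6 litters, 7 of 16 concepti being from D24M15. Without the conceptus as replicate block 3775 genes were higher and 4041 lower in the yolk sac (1303 and 1165 past 2-fold), and the tissue difference changed for 22 and 23 genes between pregnancies and for 84 and 129 between stages. With no filter on low counts 6232 genes were lower, and 2052 and 2674 were called past 2-fold. Leaving out 1 litter in turn gave 3374 to 3946 higher, 3237 to 4109 lower, 1200 to 1355 and 993 to 1209 past 2-fold. Scaling by library totals gave 3348 higher and 4557 lower, and scaling without genes over 1% of counts 4085 higher and 3841 lower. With no filter the median of the visceral endoderm list was 4.30 and that of the red cell list 4.77.

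For diabetic against normal pregnancies, DESeq2 called 182 higher and 154 lower, counts summed per litter 0 and 0, and no filter 372 and 177. Without D28M36C 35 and without D24M15J 34 were lower, alternatives added after the data were seen. Between stages DESeq2 called 199 higher, litter sums 0 higher and 4 lower, and no filter 347 and 362. The causes were not tested.

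Over 159 genes and their alternatives, 3295 of 3312 pairs kept direction and call, 8 lost the call, 1 gained it and 8 changed sign. Many of these genes were named for a large difference in the main fit, and the alternatives refit largely the same libraries. Such agreement was therefore in large part set in advance. Kdr, not called, was at -0.062 with library totals, -0.032 with 1 conceptus per litter, and -0.087 to 0.12 as litters were left out, among them -0.00051 without D28M24. Gm42418, not called, was at -0.0097 with library totals, -0.057 (without D28M36) to 0.24 as litters were left out, -0.040 without D28M36C and -0.12 without the 4 concepti whose yolk sac libraries were doubted. These were D24M15A (highest decidual sum), D24M15F (highest parietal endoderm and trophoblast sums), D24M15J and D28M36C. Without them 3578 genes were higher and 3891 lower in the yolk sac, an alternative added after the data were seen.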

Other observations

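For 1 conceptus of the 16, both tissues had been sequenced again. Over 4502 genes with a mean count of at least 100, the log2 tissue difference moved by a median of 0.113 between the first and the repeat libraries, beside a median SD of 0.413 over the 16 concepti. With the repeats in place of the first libraries 3976 genes were higher and 3997 lower in the yolk sac.

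Embryo D24M15D, of the same litter as D24M15J, was the lowest of the 16 embryos in 6 of 14 somite genes, at a median of 52.4% of the others' median. In Hox genes it stood at 67.2% and in tailbud genes at 68.2%, and it had the highest sum of neural markers (3663).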
